A study of Mus musculus with 9 samples.

Results

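The genes described here are the 10 members of the cytosolic nucleic acid sensing machinery listed by name, *Cgas*, *Sting1*, *Ddx58*, *Ifih1*, *Dhx58*, *Mavs*, *Tbk1*, *Trex1*, *Zbp1* and *Eif2ak2*. They are defined by what they encode, and the list was drawn up with earlier results of these data known. All 10 were among the 14108 genes counted in 9 mouse mammary tumours, and all 10 passed the filter on low counts. The tumours came from 3 models with 3 tumours each. HR1 (LB-mHR1) is a GFP-positive, non-metastatic line made from a mammary tumour of a mouse carrying a mutant *PIK3CA* transgene. LM1 and LM9 are lines grown out of lung metastases of HR1 cells that carried a doxycycline-inducible *piggyBac* transposon, so all 3 models share the *PIK3CA* background. Each model is 1 line, and what differs between models may belong to the line and not to its metastatic state, and the design cannot tell these apart. For each tumour 250000 cells in Matrigel and PBS were placed in the mammary fat pad of a female NOD/SCID mouse (strain label NOD.CB17-Prkcd<scid>/J) aged 4 to 8 weeks. Such hosts lack mature T and B cells but keep macrophages and other myeloid cells. Tumours were taken before 1500 mm3, and the GFP-positive fraction was sorted for stranded mRNA sequencing. The labels do not state that replicates came from separate animals, so p-values measure the spread between these samples.

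Cells treat DNA or double-stranded RNA in the cytosol as a sign of infection or damage. RIG-I (encoded by *Ddx58*) and MDA5 (*Ifih1*) bind RNA and signal through MAVS on mitochondria, while cGAS (*Cgas*) binds DNA and makes the messenger cGAMP, which activates STING (*Sting1*). Both routes meet at the kinase TBK1, which activates interferon regulatory factors, and type I interferon in turn raises the transcription of many of the sensors themselves.

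Interferon-induced transcription acts through the interferon-stimulated response element, a pair of GAAA repeats with a spacer. The letters GAAA, any 2 bases and GAAA again were searched on both strands of promoter windows from 250 bases before to 50 bases after each start site (RefSeq, GRCm38.p6). Of 32851 promoters 1131 (3.44%) held them, as did 423 of 11094 genes that were tested here and had a promoter in the table (3.81%). Of the sensor genes 7 were in the table and 3 held the letters, *Ddx58*, *Ifih1* and *Eif2ak2*, whereas *Cgas*, *Mavs*, *Tbk1* and *Trex1* had no match in this window. In the lists around them the letters were held by 5 of 7 interferon output genes, 4 of 6 oligoadenylate synthetases, 4 of 11 other DNA sensors, 2 of 5 genes of the eIF2α arm, 1 of 5 ZBP1 effectors and 1 of 10 RNA sensor cofactors, but by none of 9 nucleases and other restraints and none of 14 genes below STING and MAVS. *Dhx58*, *Zbp1* and *Sting1* were not in the table. The sites of these 3 sensors are shown first because they are the ones found among the 10 genes, and 4 from other pathway genes that also hold the letters follow for comparison. Each runs 8 bases to either side of the 10-letter match, written 5′ to 3′ on the strand of its gene with the match in capitals, and a match on the opposite strand starts with TTTC.
Ddx58, chr4:40239806-40239831 (minus strand): tgaggcagTTTCGATTTCctatggcc
Ifih1, chr2:62646206-62646231 (minus strand): agagaatcGAAACAGAAAccgatctg
Eif2ak2, chr17:78882537-78882562 (minus strand): tccgccggGAAAACGAAAcagaagag
Ddx60, chr8:61928060-61928085 (plus strand): gcagaagaGAAACCGAAActatcctt
Mndal, chr1:173880206-173880231 (minus strand): gagctgggGAAATCGAAAgctatgaa
Oas1g, chr5:120887614-120887639 (minus strand): cttctcggGAAATGGAAActgaaaat
Rsad2, chr12:26456555-26456580 (minus strand): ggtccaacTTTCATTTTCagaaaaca
The matches of *Ddx58*, *Ifih1* and *Eif2ak2* began 3, 33 and 19 bases after the annotated start site. A match is a description of the letters and not a measured site.

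Total counts per tumour lay between 32393958 and 46681945. The library labelled HR1 replicate 1 went against its label in *Nfib*, the transcription factor gene by which the study set LM1 and LM9 against HR1. Its *Nfib* level was 1343 CPM (counts scaled by library size and TMM factor), against 23.9 and 18.3 CPM in the other HR1 tumours, 579 to 791 CPM in LM1 and 421 to 583 CPM in LM9. Its log2 CPM also correlated less with the other HR1 tumours (r = 0.839 and 0.824 over genes) than these did with each other (r = 0.950). Comparisons with HR1 are therefore given with and without it. Leukocyte markers were above 0 in every tumour and the 12 genes summed to 209 to 846 CPM in HR1, 194 to 204 CPM in LM1 and 208 to 260 CPM in LM9. Of the mammary epithelial markers, *Epcam* reached at most 4.49 CPM and *Cdh1* at most 1.20 CPM, *Krt18* at most 2.48 CPM and *Krt5* at most 10.65 CPM, with *Krt18* at 0 in 1 tumour and *Krt5* in 2. *Krt14*, which marks basal epithelial cells, was at 1.56 to 109 CPM in HR1, 152 to 175 CPM in LM1 and 12.2 to 15.4 CPM in LM9. The 6 fibroblast markers, by contrast, summed to 22490 CPM in the library labelled HR1 replicate 1, 13540 and 9121 CPM in the other HR1 tumours, 3969 to 4500 CPM in LM1 and 1589 to 2720 CPM in LM9. Single genes made up most of the HR1 sums, *Dcn* (17610 CPM) in replicate 1 and *Col3a1* (12050 and 7920 CPM) in replicates 2 and 3. *Col3a1* was lowest of HR1 in replicate 1 (3338 CPM), whereas *Dcn*, *Pdgfra*, *Pdgfrb*, *Lum* and *Fap* were highest there. Thus *Epcam* and *Cdh1*, defining markers of epithelium, were near 0 in cells labelled as breast cancer cells. *Krt14* was at 12.2 CPM or more in every tumour except the library labelled HR1 replicate 1, and highest in LM1.

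**Figure D1:**
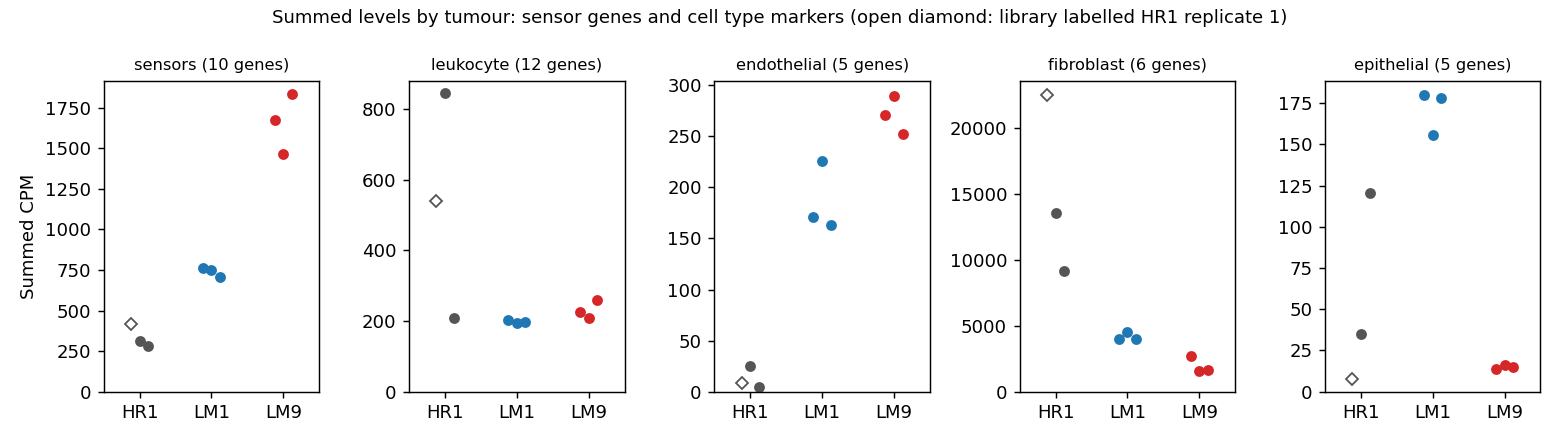
Summed CPM (TMM scaled, linear axis from 0) of the 10 sensor genes and of 4 lists of cell type markers in each tumour, by model; the open diamond is the library labelled HR1 replicate 1. The sensor sum was 283 to 414 CPM in HR1, 708 to 763 CPM in LM1 and 1465 to 1837 CPM in LM9, while the leukocyte markers summed to 194 to 260 CPM in the LM tumours and 209 to 846 CPM in HR1.

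Across the 10 genes *Ddx58*, *Ifih1*, *Dhx58* and *Zbp1* carried most of the difference. Taking LM1 and LM9 jointly against HR1, 8 of the 10 were higher at an adjusted p under 0.05 and none was lower (edgeR quasi-likelihood test). Of all genes tested 19.9% were called higher, 23.6% lower and 43.6% in either direction. The median log2 fold change was 1.04 over the 10 sensor genes and -0.05 over all genes. The count was again 8 without the library labelled HR1 replicate 1, the median of the 10 was 1.33, and 27.5% of all genes were called higher. Every LM tumour exceeded every HR1 tumour in 6 of them (*Cgas*, *Ddx58*, *Ifih1*, *Dhx58*, *Tbk1* and *Zbp1*), beside 15.6% of all genes. The exact two-sided permutation p of CPM over tumours, unadjusted, was 0.0952 for *Trex1*, 0.238 for *Eif2ak2*, 0.548 for *Mavs* and 0.643 for *Sting1*. For the 6 without overlap it was 0.0238, the smallest that 6 against 3 tumours can give, which the lack of overlap fixes and which adds nothing to it. The 3 comparisons with HR1 use the same HR1 tumours and are not independent of one another.

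**Figure D2:**
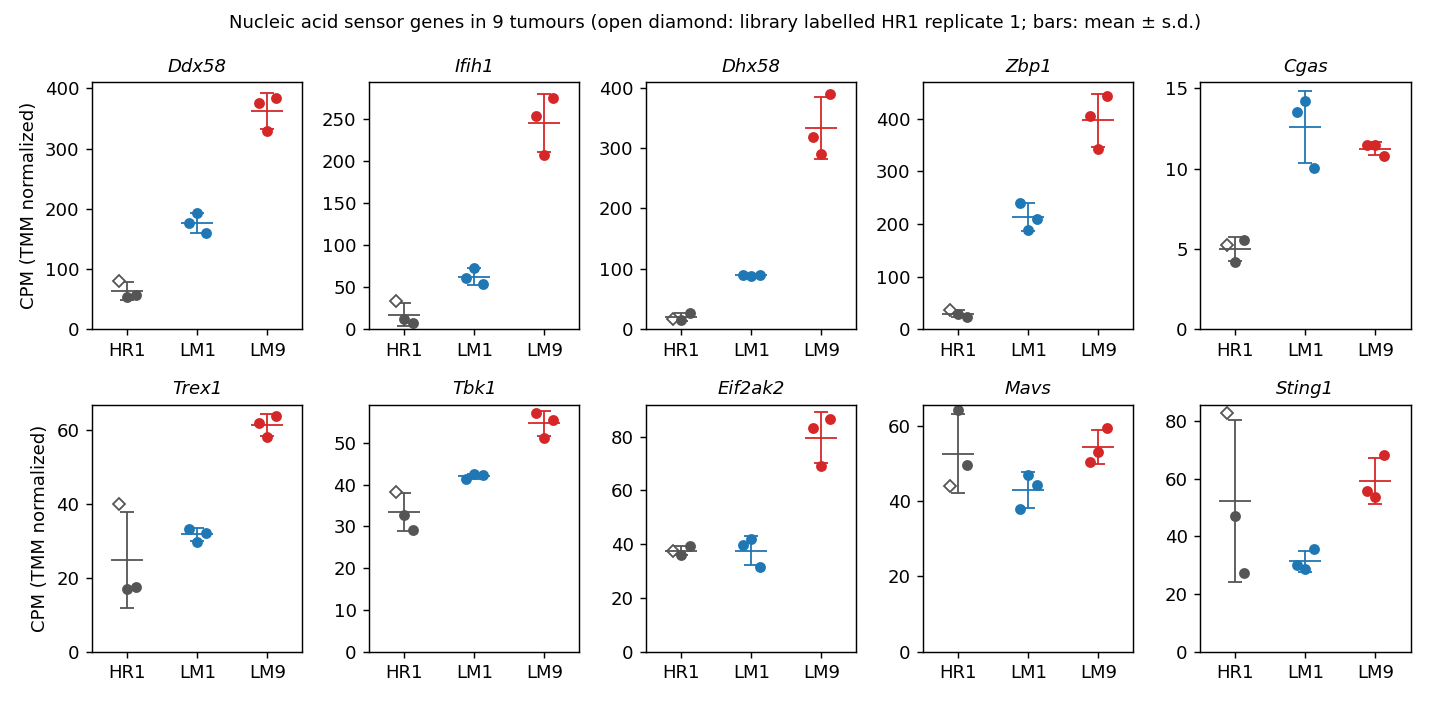
CPM (TMM scaled, linear axes from 0) of each sensor gene in each tumour, with bars for mean ± s.d. of 3 tumours; the open diamond is the library labelled HR1 replicate 1. *Ddx58*, *Ifih1*, *Dhx58*, *Zbp1* and *Tbk1* step up from HR1 to LM1 to LM9 with no overlap, whereas *Mavs* and *Sting1* in HR1 overlap both LM models.

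*Ddx58* (Entrez 230073, chr4:40203777-40239825) encodes RIG-I, which recognizes RNA with a 5′ triphosphate end. Its levels were 80.3, 53.5 and 57.1 CPM in HR1 replicates 1, 2 and 3, 176, 193 and 159 CPM in LM1 and 376, 329 and 384 CPM in LM9. The models did not overlap, and within HR1 the library labelled replicate 1 was the highest. *Ddx58* rose 2.77-fold in LM1 (log2 fold change 1.47, s.e. 0.18, adjusted p = 0.000617) and 5.71-fold in LM9 (2.51, s.e. 0.19, adjusted p = 5.16e-05) versus HR1. These were 3.20-fold and 6.58-fold without the library labelled HR1 replicate 1. Between the LM models LM9 was 2.06-fold higher than LM1 (log2 fold change 1.04, s.e. 0.18, adjusted p = 0.00549).

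*Ifih1* (Entrez 71586, chr2:62595618-62646255) encodes MDA5, the sensor of long double-stranded RNA, and had the widest range of the 10 genes, 5.10 on the log2 scale. It measured 33.2, 11.8 and 7.57 CPM in HR1, 60.9, 73.1 and 53.8 CPM in LM1 and 254, 207 and 275 CPM in LM9. All LM1 tumours lay above all HR1 tumours, and all LM9 tumours above all LM1 tumours, but the HR1 tumours differed widely among themselves. *Ifih1* was 14.04-fold higher in LM9 than in HR1 (log2 fold change 3.81, s.e. 0.51, adjusted p = 0.000871) and 3.58-fold higher in LM1 (1.84, s.e. 0.47, adjusted p = 0.017). The library labelled HR1 replicate 1 set the size of this difference, since without it the folds were 25.4 in LM9 and 6.50 in LM1. The LM1 call was lost without HR1 replicate 2 (adjusted p = 0.0505) or without LM1 replicate 2 (adjusted p = 0.0567). LM9 exceeded LM1 by 3.92-fold (log2 fold change 1.97, s.e. 0.47, adjusted p = 0.0207), with adjusted p-values of 0.0504 to 0.0846 when any 1 of the 6 LM tumours was left out. With the library labelled HR1 replicate 1 left out, the same difference had a standard error of 0.19 and an adjusted p of 6.54e-05.

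*Dhx58* (Entrez 80861, chr11:100694884-100704271) encodes LGP2, a RIG-I-like helicase that lacks the signalling domain of its relatives and modulates MDA5 and RIG-I. Levels were 17.4, 15.4 and 27.1 CPM in HR1, 89.3, 88.4 and 89.6 CPM in LM1 and 319, 290 and 390 CPM in LM9. The LM1 tumours were almost level with each other, and the models did not overlap. Relative to HR1, *Dhx58* rose 4.47-fold in LM1 (log2 fold change 2.16, s.e. 0.22, adjusted p = 0.000329) and 16.7-fold in LM9 (4.06, s.e. 0.24, adjusted p = 2.09e-05). These were 4.22-fold and 15.7-fold without the library labelled HR1 replicate 1. The step from LM1 to LM9 was 3.74-fold (log2 fold change 1.90, s.e. 0.22, adjusted p = 0.00138).

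*Mavs* (Entrez 228607, chr2:131234063-131248025) encodes the mitochondrial adaptor through which RIG-I and MDA5 signal. It did not follow its receptors. Its levels were 44.1, 64.2 and 49.5 CPM in HR1, 37.8, 46.9 and 44.2 CPM in LM1 and 50.4, 53.1 and 59.3 CPM in LM9, and HR1 overlapped both LM models. The log2 fold change versus HR1 was -0.29 in LM1 (s.e. 0.17, adjusted p = 0.204) and 0.04 in LM9 (s.e. 0.17, adjusted p = 0.85). The LM1 value was -0.40 (s.e. 0.15) without the library labelled HR1 replicate 1 and passed the threshold at an adjusted p of 0.0486. All LM9 tumours lay above all LM1 tumours, at a log2 difference of 0.34 that was not called (adjusted p = 0.177). Per tumour the ratio of *Ddx58* to *Mavs*, each per kb of exon, was 0.395 to 0.864 in HR1, 1.71 to 2.22 in LM1 and 2.94 to 3.54 in LM9. For *Ifih1* to *Mavs* it was 0.0626 to 0.309, 0.499 to 0.660 and 1.60 to 2.06. Neither ratio overlapped between models.

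*Cgas* (Entrez 214763, chr9:78430518-78443237) encodes the DNA sensor that makes cGAMP. By its mean per kb it was the lowest of the 10 genes in each model, though level with *Ifih1* in HR1 once the library labelled replicate 1 was left out. Its levels were 5.25, 4.17 and 5.56 CPM in HR1, 13.6, 14.2 and 10.03 CPM in LM1 and 11.5, 11.4 and 10.8 CPM in LM9. Both LM models lay above HR1 but, unlike the RNA sensors, overlapped each other. *Cgas* was 2.52-fold higher in LM1 (log2 fold change 1.34, s.e. 0.21, adjusted p = 0.00201) and 2.25-fold higher in LM9 (1.17, s.e. 0.21, adjusted p = 0.0031) than in HR1, and 2.61-fold and 2.32-fold higher without the library labelled HR1 replicate 1. The difference between LM9 and LM1 was -0.16 on the log2 scale (s.e. 0.21, adjusted p = 0.598).

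*Sting1* (Entrez 72512, chromosome 18) encodes the receptor of cGAMP. Its levels were 82.7, 47.0 and 27.2 CPM in HR1, 30.0, 28.5 and 35.4 CPM in LM1 and 55.7, 53.5 and 68.1 CPM in LM9. HR1 spanned both LM models, with the library labelled replicate 1 the highest of all 9, while every LM9 tumour was above every LM1 tumour. No comparison of *Sting1* passed the threshold in edgeR over all 9 tumours. Versus HR1 the log2 fold change was -0.74 in LM1 (s.e. 0.34, adjusted p = 0.121) and 0.18 in LM9 (s.e. 0.34, adjusted p = 0.697), and LM9 exceeded LM1 by 0.92 (s.e. 0.34, adjusted p = 0.0849). These calls changed with single HR1 libraries and with the tool, since DESeq2 called LM9 versus LM1 over all 9 tumours (adjusted p = 0.0466). Without the library labelled HR1 replicate 1, LM9 was higher than HR1 (log2 fold change 0.67, adjusted p = 0.0267) and LM9 was higher than LM1 (0.91, adjusted p = 0.00473). Without HR1 replicate 3, *Sting1* was lower in LM1 than in HR1 (log2 fold change -1.05, adjusted p = 0.0123), and LM9 was again higher than LM1 (0.92, adjusted p = 0.0195). *Sting1* is also expressed by leukocytes, whose markers summed to 539, 846 and 209 CPM in HR1 replicates 1, 2 and 3, and the part of such cells in this spread was not tested.

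*Tbk1* (Entrez 56480, chr10:121546455-121586794) encodes the kinase below STING and MAVS. Its levels were 38.2, 32.7 and 29.2 CPM in HR1, 41.3, 42.5 and 42.2 CPM in LM1 and 57.1, 51.3 and 55.6 CPM in LM9. The steps were small and the models did not overlap. *Tbk1* was 1.64-fold higher in LM9 than in HR1 (log2 fold change 0.71, s.e. 0.13, adjusted p = 0.00362). In LM1 the log2 fold change was 0.33 (s.e. 0.13, adjusted p = 0.0806), and 0.45 with a call (adjusted p = 0.00989) without the library labelled HR1 replicate 1, and it was also called with scaling by library size only (adjusted p = 0.0302). The difference between LM9 and LM1 was 0.38 (s.e. 0.13, adjusted p = 0.0703). It was called without the library labelled HR1 replicate 1 (adjusted p = 0.0155) or without HR1 replicate 3 (adjusted p = 0.045), and by DESeq2 over all 9 tumours (adjusted p = 0.039).

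*Trex1* (Entrez 22040, chr9:109057932-109059723) encodes the exonuclease that degrades cytosolic DNA and so restrains cGAS. Its values are uncertain, since 95.8% of the 50-base windows in its transcripts also occur in transcripts of *Atrip*. The *Trex1* levels were 39.9, 17.1 and 17.5 CPM in HR1, 33.3, 29.8 and 32.2 CPM in LM1 and 61.8, 58.1 and 64.0 CPM in LM9. *Atrip* showed the same order of models, with 53.3, 24.9 and 25.3 CPM in HR1, 41.0 to 43.5 CPM in LM1 and 69.0 to 74.9 CPM in LM9. The library labelled HR1 replicate 1 lay above all LM1 tumours for *Trex1* and the other HR1 tumours below, whereas LM9 did not overlap either model. *Trex1* was 2.48-fold higher in LM9 than in HR1 (log2 fold change 1.31, s.e. 0.31, adjusted p = 0.00974). In LM1 the log2 fold change was 0.36 (s.e. 0.30, adjusted p = 0.383), but 0.89 (adjusted p = 0.000255) without the library labelled HR1 replicate 1. For LM1 and LM9 together it was 0.83 (s.e. 0.27, adjusted p = 0.0346). That call was lost, at adjusted p-values of 0.0586 to 0.11, when any 1 of the other 8 tumours was left out, and the value was 1.36 (adjusted p = 1.14e-05) without the library labelled HR1 replicate 1. LM9 exceeded LM1 by 0.95 (s.e. 0.30, adjusted p = 0.0538), and this was called without any 1 of the HR1 tumours (adjusted p = 0.000144, 0.037 and 0.0361 without replicates 1, 2 and 3) and, over all 9 tumours, by DESeq2 (adjusted p = 0.0205) and limma-voom (adjusted p = 0.0281).

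*Zbp1* (Entrez 58203, chr2:173206612-173218959) encodes a sensor of left-handed Z-form DNA and RNA that can trigger necroptosis. Levels were 35.8, 29.7 and 22.6 CPM in HR1, 241, 189 and 210 CPM in LM1 and 404, 343 and 444 CPM in LM9. The gap between HR1 and the LM models was wide and no model overlapped another. *Zbp1* was 7.26-fold higher in LM1 (log2 fold change 2.86, s.e. 0.21, adjusted p = 9.59e-05) and 13.5-fold higher in LM9 (3.76, s.e. 0.21, adjusted p = 1.77e-05) than in HR1, and 8.19-fold and 15.2-fold higher without the library labelled HR1 replicate 1. LM9 was 1.86-fold above LM1 (log2 fold change 0.90, s.e. 0.19, adjusted p = 0.0136). This last call was lost without LM1 replicate 3, LM9 replicate 1 or LM9 replicate 3 (adjusted p = 0.0564, 0.0532 and 0.0574).

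*Eif2ak2* (Entrez 19106, chr17:78850504-78882572) encodes PKR, the kinase that stops translation by phosphorylating eIF2α when it binds double-stranded RNA. It measured 37.5, 35.8 and 39.3 CPM in HR1, 39.7, 41.9 and 31.4 CPM in LM1 and 83.2, 69.1 and 86.7 CPM in LM9. LM1 overlapped HR1, and LM9 lay above both. *Eif2ak2* was 2.12-fold higher in LM9 than in HR1 (log2 fold change 1.09, s.e. 0.15, adjusted p = 0.00098) and 2.12-fold higher than in LM1 (1.08, s.e. 0.15, adjusted p = 0.00274). In LM1 the log2 fold change versus HR1 was 0.003 (s.e. 0.15, adjusted p = 0.989). Without the library labelled HR1 replicate 1 the LM9 and LM1 values versus HR1 were 1.09 and 0.01. The predicted gene *Gm6548*, which overlaps this locus, was at 43.7 to 58.4 CPM in all tumours and did not follow *Eif2ak2*.

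**Figure D3:**
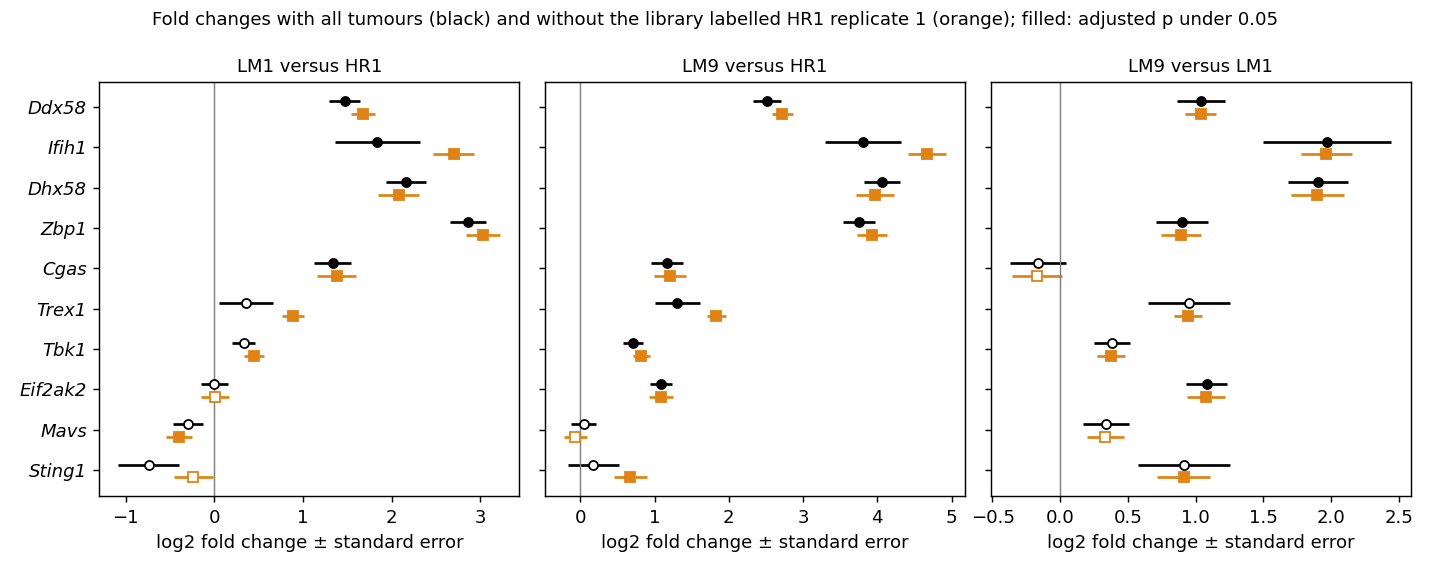
Log2 fold change ± standard error of each sensor gene in LM1 versus HR1, LM9 versus HR1 and LM9 versus LM1 (edgeR), over all 9 tumours (black circles) and without the library labelled HR1 replicate 1 (orange squares), filled where the adjusted p was under 0.05. Leaving that library out moved *Ifih1*, *Trex1* and *Sting1* upwards against HR1 and shortened the error bars of LM9 versus LM1 without moving the points.

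The comparison of LM9 with LM1 involves no HR1 tumour in its values, though HR1 enters the shared estimate of spread. Of the 10 genes 5 were higher in LM9 (*Ddx58*, *Ifih1*, *Dhx58*, *Zbp1* and *Eif2ak2*) and none lower, against 11.5% of all genes called higher and 22.0% in either direction. The median log2 difference was 0.93 over the sensor genes and 0.00 over all genes. Without the library labelled HR1 replicate 1, and again without HR1 replicate 3, 8 of the 10 were called, while the calls over all genes went from 3102 to 6413 (22.9% of genes higher) and 3905. It was 3 of the 10 without LM1 replicate 3, LM9 replicate 1 or LM9 replicate 3, where calls over all genes fell to 1365, 1200 and 1388. DESeq2 called 8 of the 10 and 4304 genes in all. In 9 of the 10 genes every LM9 tumour lay above every LM1 tumour, the exception being *Cgas*, and 31.9% of all genes had this pattern. The full order of LM9 above LM1 above HR1 without overlap was shown by 5 of the 10 (*Ddx58*, *Ifih1*, *Dhx58*, *Tbk1* and *Zbp1*), beside 763 of 14086 genes (5.42%). In LM1 versus HR1 alone 5 of the 10 were higher and none lower (16.7% of all genes higher). These counts became 7 higher and 1 lower (*Mavs*) without the library labelled HR1 replicate 1, beside 26.9% and 26.0% of all genes. In LM9 versus HR1 8 were higher (20.4% of all genes), and 9 without that library (27.9%). Every LM1 tumour lay above every HR1 tumour in 6 of the 10 genes (23.9% of all genes), and every LM9 tumour did so in 8 (28.0%).

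Levels were compared between genes per kb of exon. The places of *Trex1* are uncertain, since 95.8% of its 50-base windows also occur in transcripts of *Atrip*. In HR1 the exonuclease, the receptor and the adaptor came first, with means of 21.6 CPM per kb for *Trex1*, 19.1 for *Sting1* and 15.7 for *Mavs*, whose tumours overlapped. *Dhx58* was eighth at 6.10 and *Ifih1* ninth at 2.15 CPM per kb. Without the library labelled HR1 replicate 1 the first 3 stood in another order, *Mavs* at 17.0, *Trex1* at 15.04 and *Sting1* at 13.5 CPM per kb, and *Ifih1* was at 1.18 CPM per kb, level with *Cgas* at 1.18. In LM1 *Zbp1* led with 60.4 CPM per kb, above *Trex1* (27.7), *Dhx58* (27.2) and *Ddx58* (25.0), and these 3 overlapped one another. In LM9 *Zbp1* (112.5 CPM per kb) and *Dhx58* (101.8) overlapped at the top, *Trex1* (53.4) and *Ddx58* (51.5) overlapped below them, and *Ifih1* followed at 30.1. *Cgas* had the lowest mean over 3 tumours in every model, at 1.21 in HR1, where it overlapped *Ifih1*, 3.05 in LM1 and 2.72 CPM per kb in LM9. The balance among the RNA sensors also differed. LGP2 to RIG-I transcript (*Dhx58* to *Ddx58*, per kb) was 0.466 to 1.02 in HR1, 0.988 to 1.21 in LM1 and 1.83 to 2.19 in LM9, so that only LM9 stood clear of the other models in this ratio.

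**Figure D4:**
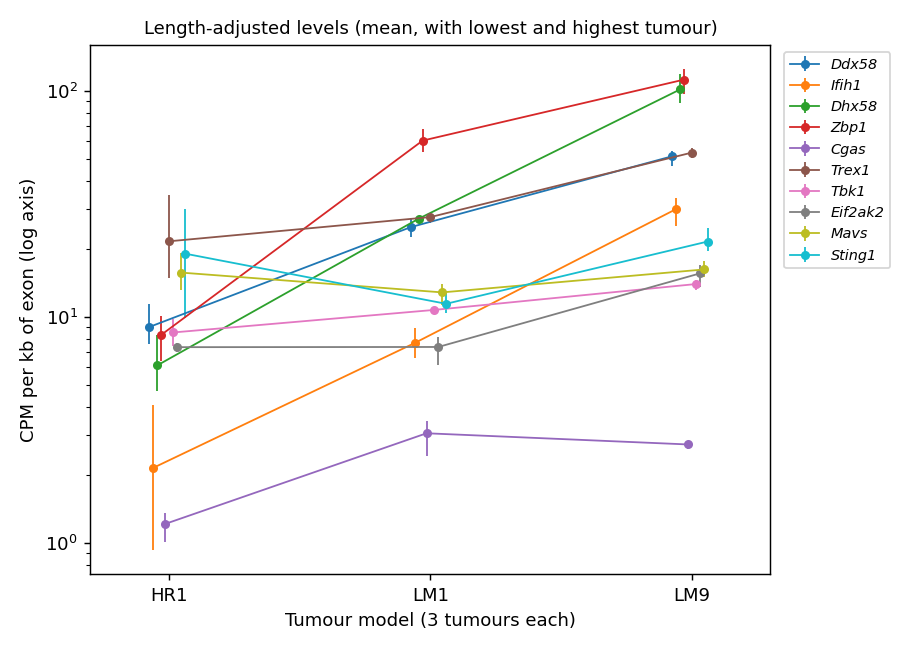
Mean CPM per kb of exon (log axis) of the 10 sensor genes in HR1, LM1 and LM9, with vertical lines from the lowest to the highest of 3 tumours. *Zbp1*, *Dhx58* and *Ifih1* climb in the order from HR1 to LM9 and *Ddx58* rises in level while keeping its place by the mean of 3 tumours. Without the library labelled HR1 replicate 1, *Tbk1* (7.91 CPM per kb) stood just above *Ddx58* (7.84) in HR1. The means of *Mavs* and *Sting1* stay between 11.4 and 21.6 CPM per kb, and *Cgas* has the lowest mean in each model, overlapping *Ifih1* in HR1.

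The genes around the sensors were read from 8 lists (79 of 81 genes were among those counted). Values marked reduced are those without the library labelled HR1 replicate 1. All 9 genes of the interferon output were higher in LM1 and LM9 versus HR1 (median of the log2 fold changes 2.92, reduced 2.90), and all 9 were again higher in the reduced fit, beside 19.9% of all genes higher and 27.5% in the reduced fit. *Ifnb1*, the type I interferon that these pathways switch on, had 2, 12 and 7 counts in HR1 (0.0665, 0.270 and 0.180 CPM), 114, 76 and 66 counts in LM1 (2.39, 1.72 and 1.68 CPM) and 986, 305 and 709 counts in LM9 (21.2, 6.98 and 15.95 CPM). It was low in HR1, above it in every LM1 tumour and highest in LM9, with a log2 fold change of 4.88 (reduced 4.54, adjusted p = 0.000332) in LM1 and LM9 versus HR1 and 2.93 (adjusted p = 0.00566) in LM9 versus LM1. The chemokine gene *Ccl5* was at 6.05 to 20.1 CPM in HR1, 85.9 to 106 CPM in LM1 and 180 to 267 CPM in LM9 (log2 fold change 3.73, reduced 4.47, adjusted p = 0.000366). *Rsad2*, which encodes the antiviral enzyme viperin, was at 9.38 to 25.6 CPM, 71.1 to 101 CPM and 438 to 521 CPM (log2 fold change 3.31, reduced 2.97, adjusted p = 0.000236).

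The oligoadenylate synthetase family senses double-stranded RNA and makes short oligoadenylate messengers. All 8 genes of this list rose in LM1 and LM9 versus HR1, at a median of 2.84 on the log2 scale (reduced 2.80, again all 8), beside the same 19.9% and 27.5% of all genes. In LM1 versus HR1 7 of the 8 were higher, beside 16.7% of all genes, and *Oas3* was not called (log2 fold change 1.34, adjusted p = 0.122). In the reduced fit all 8 were higher there, beside 26.9% of all genes, and *Oas3* was called (0.86, adjusted p = 0.0351). *Oas2* went from 2.03, 6.19 and 10.2 CPM in HR1 to 71.3 to 82.2 CPM in LM1 and 267 to 404 CPM in LM9 (log2 fold change 4.68, reduced 4.28, adjusted p = 0.00026). *Oasl1*, which encodes a synthetase-like protein that restrains *Irf7* translation, was at 28.9 to 53.4, 126 to 136 and 632 to 672 CPM (log2 fold change 2.89, reduced 2.72, adjusted p = 4.69e-05). *Oas1g* (log2 fold change 3.18, reduced 2.95, adjusted p = 0.000104) shares 45.7% of its 50-base windows with *Oas1a*, *Oas1b* or others and is uncertain.

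Among 12 other DNA sensors and cofactors, 7 were higher in LM1 and LM9 versus HR1 and none lower, beside 19.9% and 23.6% of all genes. In LM1 versus HR1 1 was higher, and in LM9 versus HR1 8 were, the same counts as in the reduced fit, beside 16.7% and 20.4% of all genes (26.9% and 27.9% in the reduced fit). The PYHIN family, which binds DNA in cytosol and nucleus, supplied most of these calls. *Ifi207* was at 11.8, 10.5 and 6.85 CPM in HR1, 5.92, 8.04 and 5.39 CPM in LM1 and 132, 101 and 99.4 CPM in LM9. HR1 and LM1 overlapped and LM9 lay far above both, with a log2 difference of 4.10 from LM1 (adjusted p = 0.000183). *Mndal* followed the same course, with 3.36 to 9.61, 3.49 to 5.21 and 56.1 to 61.9 CPM (LM9 versus LM1 log2 difference 3.72, adjusted p = 0.000957). *Ifi205* was called in LM1 and LM9 versus HR1 (log2 fold change 1.70, reduced 1.24, adjusted p = 0.0236). These genes are related in sequence, and 7.29% of the windows of *Ifi207*, 19.6% of *Mndal* and 18.6% of *Ifi205* occur in other transcripts.

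Of 11 genes for nucleases and other proteins that remove, edit or mask self nucleic acid or remove cGAMP, 5 were higher and 4 lower in LM1 and LM9 versus HR1, beside 19.9% and 23.6% of all genes. *Enpp1*, whose product hydrolyses extracellular cGAMP, was at 8.41, 18.3 and 27.2 CPM in HR1, 320, 344 and 340 CPM in LM1 and 355, 452 and 339 CPM in LM9. It was far higher in both LM models (log2 fold change 4.31, reduced 3.98, adjusted p = 0.000111; LM9 versus LM1 0.19, s.e. 0.34, adjusted p = 0.72). *Adar*, the editor of double-stranded RNA that limits MDA5 activation, rose to 89.5 to 115 CPM in LM1 and 185 to 234 CPM in LM9 from 42.6 to 78.3 CPM (log2 fold change 1.31, reduced 1.13, adjusted p = 0.00133). *Dnase1l3* was called over LM1 and LM9 (log2 fold change 2.22, reduced 4.06, adjusted p = 0.0477) at 0.154 to 3.46 CPM in HR1 and 4.62 to 9.28 CPM in the LM tumours.

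Of 11 cofactors and regulators of the RNA sensors 4 were higher and 3 lower, beside the same 19.9% and 23.6% of all genes. *Ddx60*, a helicase cofactor of RIG-I, was at 2.86 to 4.25 CPM in HR1, 7.80 to 10.9 CPM in LM1 and 40.4 to 70.5 CPM in LM9 (log2 fold change 2.68, reduced 2.71, adjusted p = 0.000145). *Tlr3*, the endosomal receptor of double-stranded RNA, was at 5.67 to 17.4, 20.4 to 23.4 and 41.7 to 62.2 CPM (log2 fold change 1.85, reduced 2.60, adjusted p = 0.00547). *Nlrx1*, whose product restrains MAVS, fell from 15.5, 8.71 and 11.7 CPM in HR1 to 3.94 to 5.42 CPM in LM1 and 1.58 to 2.32 CPM in LM9 (log2 fold change -1.94, reduced -1.71, adjusted p = 0.000484).

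Below STING and MAVS 5 of 17 genes were higher and 3 lower (*Ikbkg*, *Irf3* and *Tradd*), beside 19.9% of all genes higher and 23.6% lower. *Irf7*, the interferon-inducible regulatory factor, reached 469 to 595 CPM in LM1 and 1825 to 2191 CPM in LM9 against 113 to 206 CPM in HR1 (log2 fold change 2.71, reduced 2.95, adjusted p = 7.33e-05). *Irf3*, the constitutive factor, had a log2 fold change of -0.57 (reduced -0.31) and was at 37.0 to 61.9 CPM in HR1 and 27.9 to 36.0 CPM in the LM tumours. *Irf5* (log2 fold change 1.76, reduced 1.63, adjusted p = 0.000428) and *Tbkbp1*, an adaptor of TBK1 (2.31, reduced 3.33, adjusted p = 0.00575), rose in both LM models. Of 6 genes of the eIF2α arm (the other eIF2α kinases, 2 phosphatase subunits and *Eif2s1*, which encodes eIF2α itself), *Ppp1r15b* alone was called in LM1 and LM9 versus HR1 (0.58, reduced 0.46, adjusted p = 0.0194), whereas 3 were higher and 1 lower (*Eif2s1*) in LM9 versus HR1, beside 20.4% and 21.9% of all genes.

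Of the 5 effectors of ZBP1 1 was higher, 1 lower and 3 not called in LM1 and LM9 versus HR1, shares close to the 19.9% and 23.6% of all genes. *Ripk3*, the kinase through which ZBP1 triggers necroptosis, was at 5.29, 2.88 and 2.34 CPM in HR1, 0.279 to 0.815 CPM in LM1 and 0.366 to 0.451 CPM in LM9, with a log2 fold change of -2.81 (reduced -2.38, adjusted p = 0.000836). *Mlkl*, the executioner that RIPK3 phosphorylates, rose from 9.54, 15.9 and 27.1 CPM to 57.9 to 67.2 CPM in LM1 and 100 to 112 CPM in LM9 (log2 fold change 2.20, reduced 1.92, adjusted p = 0.000686). The tumours with the most *Zbp1* transcript had under 1 CPM of *Ripk3*. *Ripk1*, *Casp8* and *Fadd* were not called. In such bulk samples fewer cells expressing a gene and less RNA per cell cannot be told apart.

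**Figure D5:**
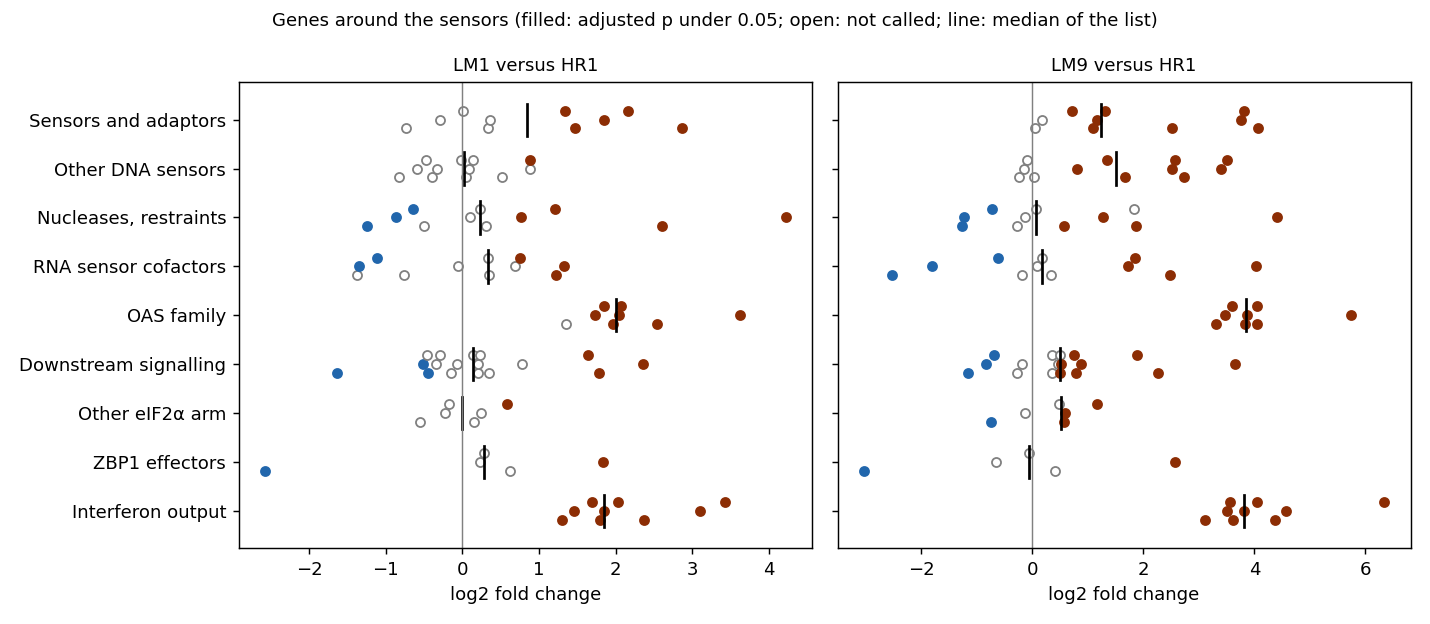
Log2 fold change of each gene of the sensor list and the 8 lists around it in LM1 versus HR1 and in LM9 versus HR1 (edgeR, all 9 tumours), filled where the adjusted p was under 0.05 (red higher, blue lower), with a black line at the median of each list. The synthetases and the interferon output lie to the right in both panels, while the other DNA sensors centre on 0.02 in LM1 and 1.51 in LM9 (0.25 and 1.42 without the library labelled HR1 replicate 1).

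Of the 12 leukocyte markers 9 were lower and none higher in LM1 and LM9 versus HR1 (23.6% and 19.9% of all genes), the same counts as without the library labelled HR1 replicate 1, but in LM9 versus LM1 1 of the 12 was higher (*Cd68*) and 1 lower, where 22.0% of all genes were called. Their sum was higher in every LM9 tumour (208 to 260 CPM) than in every LM1 tumour (194 to 204 CPM). Without *Cd68*, which was left out after its values were seen, the other 11 summed to 168 to 725 CPM in HR1, 176 to 188 CPM in LM1 and 72.7 to 122 CPM in LM9. Among 5 endothelial markers *Cdh5* and *Kdr* were higher and *Pecam1*, *Emcn* and *Cldn5* lower in LM1 and LM9 versus HR1. Their sum was 4.50 to 24.7 CPM in HR1, 163 to 226 CPM in LM1 and 252 to 290 CPM in LM9. It had the same order of models as *Ddx58*, *Ifih1* and *Dhx58*, mainly through *Cdh5* (1.88 to 13.4, 136 to 190 and 228 to 254 CPM). *Pecam1*, *Emcn* and *Cldn5* ran the other way, with their lowest means in LM9. The part of either marker list in the sensor values was not tested. Of the fibroblast markers 6 of 6 were lower, and 4 without that library, beside 23.6% and 28.5% of all genes.

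Without the library labelled HR1 replicate 1 the counts of higher and lower genes in LM1 and LM9 versus HR1 were the same in 6 of the 8 lists. They became 6 and 4 of 17 below STING and MAVS and 2 and 2 of 6 for the eIF2α arm, beside 27.5% of all genes higher and 28.5% lower. All 21 genes chosen from these lists by rule kept their direction and call, and 5 moved by over 1.5 times. These were *Dnase1l3*, *Tbkbp1*, *Tlr3*, *Ccl5* and *Mndal* (1.54, and 2.14 without that library).

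The patterns of the 3 widest-ranging sensors were matched to single genes by the root mean square difference of mean-centred log2 CPM over the 9 tumours, among 12377 genes. Nearest to *Ifih1* were *Trim30a* (0.21), *Sox7* (0.26) and *Slfn8* (0.27). Nearest to *Dhx58* were *Ifit3* (0.20), *Ifit3b* (0.22) and *Oasl1* (0.24), and nearest to *Zbp1* were *Apobr* (0.13), *H2-Q7* (0.22) and *Fndc1* (0.26). Between sensors the differences were larger, 0.54 for *Dhx58* and *Zbp1*, 0.60 for *Ifih1* and *Zbp1* and 0.65 for *Ifih1* and *Dhx58*, against 1.74 for *Ifih1* and *Mavs*. These are descriptions over 9 tumours of 3 models, in which any genes that differ between models in the same order and by like amounts come out close. The values were not scaled, so a gene of narrow range lies far from one of wide range. The log2 range was 0.76 for *Mavs* and 5.10 for *Ifih1*, so their 1.74 largely reflects the range of *Ifih1*.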

How the data were processed

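RNA-seq was done on sorted GFP-positive cells of 9 tumours, with model and replicate number taken from the sample labels. For each tumour the authors deposited whole-number counts per gene, made by aligning single-end reads to mm10 (the build in the submitters' processing notes) with STAR and counting them over the union of each gene's exons with qCount of QuasR. Tool versions, the annotation and the strand setting of this counting are not given in the sources used here. The counts are not normalized, and the lowest third-highest count of any of the 14108 listed genes was 7. Entrez numbers were matched to symbols and GRCm38 positions through RefSeq for 14085 genes, and no column of counts was left unassigned to a tumour.

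Counts were scaled by TMM factors (0.928 to 1.05), and 14086 genes passed filterByExpr. The test was edgeR's quasi-likelihood F-test (version 4.0.16, R 4.3.3, robust) with 1 fit over the 3 groups, no covariate and Benjamini-Hochberg adjustment over all genes tested at a threshold of 0.05. The study's methods used limma-voom, which was run as an alternative (limma 3.58.1), as were DESeq2 1.42.0, other size factors and filters, the replicate number as a block, no robust fit, and each tumour left out. Per-kb levels are CPM divided by the length of the exon union in GENCODE. Tables, exact two-sided permutation tests of CPM and figures were made in Python 3.11.15. Samples with the same replicate number did not deviate together in every pair, so the number was not taken as a pairing.

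Tested on simulated counts for LM1 and LM9 versus HR1 (13888 genes, 200 changed), edgeR recovered 32% of genes changed 2-fold, 84% at 4-fold, 86% at 8-fold and 96% at 16-fold, with 5.1% false calls. Total counts of 32393958 to 46681945 per tumour put 3 counts well under 1 CPM. PCR duplicates could not be removed, so the mark of 3 counts covers counting error only. The simulated counts also held the spread estimated between the tumours.

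The 10 genes and the 8 lists around them were chosen with earlier results of these data known. From each list up to 3 genes are named, those with the largest absolute log2 fold change among the genes called in LM1 and LM9 versus HR1. For the 3 sensors with the widest range of log2 CPM, the 3 genes of at least 1 mean CPM nearest in mean-centred log2 (CPM + 0.5) over the 9 tumours are named. Other genes were named after their values were seen. 1 gene was taken out of these lists and of all their counts and is not reported here, and protein sequences were not used.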

Additional observations from a re-analysis of the deposited data

Results flagged for a closer look

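The following genes differed between the LM models in the direct test of LM9 versus LM1 (edgeR, adjusted over all genes, 22.0% of which were called), which is the difference between their fold changes against the shared HR1 tumours. Of the sensors, the log2 difference was 1.04 for *Ddx58*, 1.97 for *Ifih1*, 1.90 for *Dhx58*, 0.90 for *Zbp1* and 1.08 for *Eif2ak2*, with every LM9 tumour above every LM1 tumour in each. Other nucleic acid sensors and cofactors higher in LM9 were *Mndal* (3.72), *Ifi207* (4.10), *Ddx60* (2.72), *Oas2* (2.12), *Oas1g* (1.29) and *Oasl1* (2.31). The editor gene *Adar* (1.10), the regulatory factor *Irf7* (1.86) and the output genes *Ifnb1* (2.93) and *Rsad2* (2.54) were also higher in LM9, and *Nlrx1*, the restraint on MAVS, was lower (-1.18). The 12 leukocyte markers summed to 194 to 204 CPM in LM1 and 208 to 260 CPM in LM9, and the 11 without *Cd68*, which was left out after its values were seen, to 176 to 188 CPM and 72.7 to 122 CPM. Their part in these differences was not tested.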

How the results depend on the processing

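Across the 40 log2 fold changes of the 10 sensor genes (4 comparisons), direction and call were the same in 39 with RLE size factors, 39 with library size only, 39 with a filter of at least 1 CPM in at least 3 tumours, 40 with no filter, 40 with no robust fit, 38 with limma-voom and 36 with DESeq2. With the replicate number as a block all 40 were the same, and 5234 genes were called in LM1 and LM9 versus HR1 and 2295 in LM9 versus LM1, against 6138 and 3102 without it. Same-numbered tumours of different models deviated together in no regular way (r from -0.129 to 0.268), so the block is not taken as a pairing. Each reversal was of a value that was not called. *Eif2ak2* in LM1 versus HR1 was 0.003, but -0.0017 with RLE size factors, -0.022 with the 1 CPM filter, -0.0014 with DESeq2 and -0.0036 with limma-voom, and -0.093 to 0.12 with single tumours left out. With single tumours left out *Mavs* ranged from -0.232 to 0.0452 in LM1 and LM9 versus HR1 and from -0.0658 to 0.214 in LM9 versus HR1, and *Sting1* from -0.591 to 0.218 and from -0.133 to 0.673. Sensor genes called numbered 4 to 8 in LM1 versus HR1 (8 without the library labelled HR1 replicate 1) and 3 to 8 in LM9 versus LM1, where DESeq2 called 8. Genes called in all numbered 3121 to 7453 in LM1 versus HR1, 3768 to 7862 in LM9 versus HR1 and 1150 to 6413 in LM9 versus LM1, the highest each time without that library. The cause was not tested. With DESeq2 the simulated counts gave 25.9% false calls against 5.1% with edgeR, and edgeR recovered 32% of 2-fold changes. The simulation changed 200 of 13888 genes, whereas 43.6% of all genes tested were called in LM1 and LM9 versus HR1. Its shares belong to that setting and do not give the share of changes found, missed or false in the tumours. A gene that was not called may still differ.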

Other observations

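Among the other list genes called in LM9 versus LM1, 3 are described here and were chosen after their values were seen. *Aim2*, which encodes the inflammasome sensor of cytosolic DNA, was at 1.06, 1.40 and 0.695 CPM in HR1, 0.924, 0.566 and 0.279 CPM in LM1 and 7.96, 7.33 and 5.65 CPM in LM9. HR1 and LM1 were low and overlapped, and LM9 lay above both, at a log2 difference of 3.55 from LM1 (edgeR, adjusted p = 0.00261). *Ppp1r15a*, the stress-induced phosphatase subunit that reverses the action of PKR on eIF2α, was at 42.3 to 64.8 CPM in HR1, 30.0 to 43.5 CPM in LM1 and 99.7 to 137 CPM in LM9 (log2 difference 1.71 from LM1, adjusted p = 0.00199). *Samhd1*, which encodes a dNTPase that limits cytosolic DNA, was lower in LM1 than in HR1, with 130 to 138 CPM in HR1, 68.1 to 77.8 CPM in LM1 and 118 to 161 CPM in LM9 (LM1 versus HR1 log2 fold change -0.87, adjusted p = 0.00217, and -0.83 without the library labelled HR1 replicate 1; LM9 versus LM1 0.94, adjusted p = 0.0034).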
